A study of Homo sapiens with 24 samples.

Results

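The 10 genes examined here encode the core machinery that makes microRNAs (miRNAs) and carries out silencing: DROSHA, DGCR8, XPO5, DICER1, AGO1, AGO2, AGO3, TNRC6A, TNRC6B and TNRC6C. They were taken by symbol, and all 10 were found among the 26364 genes of the count tables. RNA-seq was performed on T-47D cells, an established ER-positive breast cancer line. Their own ESR1 gene, which encodes estrogen receptor alpha, was wild type (WT) or, per the study, heterozygous for Y537S or D538G. Each genotype was represented by 2 clones, so a difference between genotypes rests on 2 lines of each. Mimics are synthetic duplexes that stand in for a mature miRNA, inhibitors are oligonucleotides that bind and block one, and both were paired with a negative control of the same kind. All cells were kept in hormone-deprived medium, transfected at 10 nM and collected after 24 h.

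The 24 libraries covered 12 conditions with 1 library per clone. The mimic negative control and the miR-301b-3p mimic were given to all genotypes, namely Y537S (clones 1 and 2), D538G (clones A5 and C2) and WT (clones D1 and D4). The mimic of miR-331-3p was given to Y537S and WT clones, and that of miR-181c-5p to D538G and WT clones. Only the Y537S clones received an inhibitor, of let-7f-5p, with an inhibitor negative control beside it. Libraries held 31379962 to 50526442 counts. The 8 luminal markers summed to 8877 to 14240 normalized counts scaled to library size (CPM) across libraries, and the 8 markers of basal, immune, stromal and endothelial cells to 48.8 to 82.6 CPM, of which COL1A1, a collagen gene of fibroblasts, gave 47.3 to 81.0 CPM, while KRT5, KRT14, PTPRC and PECAM1 each stayed under 1 CPM and were at 0 in at least 1 library. Among the 10 genes, the least counted was AGO3, with 503 to 814 reads in every library, and the most counted was DICER1, with 3418 to 14533.

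In the canonical pathway, DROSHA with its partner DGCR8 cuts the primary transcript in the nucleus, exportin-5 (XPO5) carries the resulting hairpin to the cytoplasm, and DICER1 cuts it into a duplex. One strand is held by an Argonaute protein (AGO1, AGO2 or AGO3), of which AGO2 can itself cut a fully paired target. TNRC6A, TNRC6B and TNRC6C are the GW182 scaffolds that tie Argonaute to the enzymes that shorten the poly(A) tail. Target choice rests mainly on the seed, bases 2 to 8 of the miRNA, and most effective sites lie in the 3′UTR.

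The seeds differ among the 4 miRNAs, and the sequences are shown because every count of seed matches below depends on them. Mature sequences are from RefSeq, with the seed in capitals.
hsa-miR-301b-3p: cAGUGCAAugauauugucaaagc
hsa-miR-331-3p: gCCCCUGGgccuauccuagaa
hsa-miR-181c-5p: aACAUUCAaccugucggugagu
hsa-let-7f-5p: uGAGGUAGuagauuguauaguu

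A match was a stretch of 7 bases on the transcript strand complementary to the seed: TTGCACT for miR-301b, CCAGGGG for miR-331, TGAATGT for miR-181c and CTACCTC for let-7f. In the 3′UTRs of 18757 genes, matches were present in 14.2%, 14.1%, 19.4% and 9.84% of genes, respectively. Of the 10 genes, 8 had a miR-301b match in the 3′UTR, 3 a miR-331 match, 4 a miR-181c match and 3 a let-7f match. Longer 3′UTRs hold more matches, so each gene was also set beside 3′UTRs within 25% of its length. DICER1 held 3 miR-301b matches in 4270 bases, where 32.5% of 2063 genes of like length held any. AGO1 held 3 in 10925 bases (60.9% of 299 genes held any), and AGO2 held 6 in 11888 bases (62.1% of 232 genes held any). DROSHA and DGCR8 held no miR-301b match. Of 184 genes with 3′UTRs of like length to TNRC6B, 63% held a miR-301b match, 50% a miR-331 match and 76.6% a miR-181c match. Of 67 genes like AGO3, 74.6% held a miR-301b match. Of 2937 genes like TNRC6A, 21% held a miR-301b and 18.5% a miR-331 match.

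Sites are shown for a selection of the called genes, namely DICER1 and AGO1 for miR-301b, TNRC6A and TNRC6B for miR-331 and TNRC6B and DICER1 for miR-181c, and for DICER1 with let-7f. The miR-301b sites of TNRC6A and TNRC6B and the miR-181c site of DROSHA are not printed. The sites are on GRCh37 (hg19), read in the direction of the transcript, with the 7-base match in capitals. The first 3 lie in the 3′UTR of DICER1 (chr14:95552565-95624347, minus strand).
DICER1, miR-301b, chr14:95555372-95555398: ttttttttttTTGCACTgtaactataa
DICER1, miR-301b, chr14:95555316-95555342: tgggtcagtcTTGCACTcccatcaaca
DICER1, miR-301b, chr14:95553921-95553947: cagataagcaTTGCACTtggtaccatg
The next 3 lie in the 3′UTR of AGO1 (chr1:36335409-36396133, plus strand).
AGO1, miR-301b, chr1:36386194-36386220: ccattgacatTTGCACTttcaaacatg
AGO1, miR-301b, chr1:36389573-36389599: gtatgtgatgTTGCACTtagcagccat
AGO1, miR-301b, chr1:36394408-36394434: ttaggaaattTTGCACTgggtatttga
TNRC6A (chr16:24621530-24838953, plus strand) and TNRC6B (chr22:40440821-40731812, plus strand) held 1 and 2 miR-331 matches in their 3′UTRs, and TNRC6B held 4 miR-181c matches, of which the one that extends to 8 bases with an A opposite base 1 of the miRNA is shown.
TNRC6A, miR-331, chr16:24835196-24835222: ccgcctgcagCCAGGGGccgcctgtgg
TNRC6B, miR-331, chr22:40723044-40723070: cctcctggggCCAGGGGtcagaattcc
TNRC6B, miR-331, chr22:40727939-40727965: caggtaaattCCAGGGGgcctgcagtt
TNRC6B, miR-181c, chr22:40724323-40724349: tcttctgacaTGAATGTagcataagtt

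DICER1 held no miR-181c or let-7f match in its 3′UTR. Its coding sequence of 5769 bases held 2 matches to miR-181c and 4 to let-7f, where 33.2% and 35.2% of 764 coding sequences of like length held any. It also held 1 to miR-301b. Coding matches were not particular to DICER1. DROSHA, DGCR8, TNRC6A, TNRC6B and TNRC6C each held 1 to miR-181c. XPO5 and AGO3 each held 1 to let-7f and TNRC6C held 2, and AGO2 and TNRC6A each held 1 to miR-331. The DICER1 8-base sites to miR-181c and let-7f that lie within 1 exon, the flanks included, are shown.
DICER1, miR-181c, coding, chr14:95570018-95570044: agcccagcgaTGAATGTactctcctga
DICER1, let-7f, coding, chr14:95570076-95570102: gtgcaaccaaCTACCTCatattccatt
DICER1, let-7f, coding, chr14:95569968-95569994: gctaacaaatCTACCTCagatggaagt
DICER1, let-7f, coding, chr14:95560434-95560460: cgattttggaCTACCTCataaccaagc
A match says only that these letters are present, not that the site is used.

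Under the mimic negative control, transcript levels per length spanned a wide range within the pathway. On the scale of CPM per kilobase of the canonical transcript, WT cells had 26.9 ± 1.97 (SD, n = 2 clones, as in all levels that follow) for DICER1, 25.9 ± 0.203 for DROSHA, 18.9 ± 0.0408 for XPO5 and 18.0 ± 0.137 for TNRC6A. DGCR8, the partner of DROSHA, stood at 10.3 ± 0.481 and TNRC6B at 8.28 ± 0.281. The remaining scaffold and the Argonautes were lowest, with 5.17 ± 0.432 for AGO1, 4.81 ± 0.322 for TNRC6C, 3.86 ± 0.161 for AGO2 and 1.02 ± 0.00808 for AGO3. DICER1 and DROSHA did not differ beyond their spread in that order, nor did AGO1 and TNRC6C. The order depends on the annotated lengths, and which transcripts the cells used was not measured. By CPM without length, AGO1 at 70.8 ± 5.92 and AGO2 at 56.35 ± 2.35 stood above DGCR8 at 46.3 ± 2.17 in WT cells. In D538G cells the order began with DROSHA at 28.7 ± 0.380 and XPO5 at 23.7 ± 1.17, ahead of DICER1 at 18.5 ± 2.12. In Y537S cells DICER1 was at 29.2 ± 0.387, and AGO2 at 6.08 ± 0.748 stood level with TNRC6C at 6.12 ± 0.544. Annotated exons of TNRC6C overlap TMC6 on the other strand by 1426 bases, those of XPO5 overlap POLR1C by 348 bases and those of DICER1 overlap DICER1-AS1 by 80 bases, and whether the counting used the strand is not given in the sources used here.

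The genotypes differed in XPO5, AGO2 and DICER1. XPO5 (chr6:43490072-43543775) was at 100.3 and 100.6 CPM in the WT clones, 121.6 and 130.4 in the D538G clones and 143.7 and 132.0 in the Y537S clones. Neither mutant overlapped WT. In bulk RNA, fewer cells that express a gene and less of its RNA per cell cannot be told apart. XPO5 was higher by 0.49 ± 0.0791 (log2 fold change ± SE, as in all fold changes that follow) in Y537S (adjusted p = 0.00436) and by 0.33 ± 0.0744 in D538G (adjusted p = 0.00707). Here and below, adjusted p-values come from the quasi-likelihood test of edgeR, adjusted by Benjamini-Hochberg over all genes tested, and genes under 0.05 were called. Without WT clone D1, the Y537S difference of 0.48 had an adjusted p of 0.0519 in that edgeR test.

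AGO2 (chr8:141530255-141645732, minus strand), the slicing Argonaute, was at 58.0 and 54.7 CPM in WT, 64.0 and 68.0 in D538G and 96.5 and 81.0 in Y537S clones, so that the genotypes did not overlap. It was 0.68 ± 0.108 higher in Y537S than in WT cells (edgeR adjusted p = 0.00388). The D538G difference from WT of 0.23 ± 0.0824 and the Y537S difference from D538G of 0.45 ± 0.104 were not called (edgeR adjusted p = 0.0517 and 0.0516). The former was called with the GC trend removed (0.23) and the latter by DESeq2 (adjusted p = 0.00878). Over all 24 libraries the genes outside the pathway whose log2 CPM was most like that of AGO2, among 9713 genes with a mean of at least 10 CPM, were NEK9 (Pearson r = 0.948), DKC1 (0.933) and MTHFD1 (0.917). The libraries share clones and treatments, so these values describe likeness only.

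DICER1 was the one member that the edgeR test called between the mutants. Control levels were 293.9 and 265.0 CPM in WT, 306.3 and 300.6 in Y537S and 176.8 and 207.9 in D538G clones. D538G cells were lower than WT by a log2 difference of -0.54 ± 0.0918 (edgeR adjusted p = 0.00172), and Y537S cells were higher than D538G by 0.68 ± 0.0969 (edgeR adjusted p = 0.0124). Without D538G clone A5, the clone with the lower level, the latter was 0.57 with an edgeR adjusted p of 0.0917. Y537S and WT cells differed by 0.15 ± 0.0812, which was not called (edgeR adjusted p = 0.212).

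AGO3 and TNRC6B were lower in D538G than in WT cells, and TNRC6C was higher in Y537S than in WT cells. AGO3 (chr1:36396319-36538101) was at 14.8 and 15.0 CPM in D538G against 20.1 and 19.9 in WT clones (-0.42 ± 0.120, edgeR adjusted p = 0.0217). TNRC6B was at 126.1 and 121.5 against 147.8 and 155.1 CPM (-0.29 ± 0.0708, edgeR adjusted p = 0.0110). TNRC6C (chr17:75954785-76104903) was at 59.6 and 67.6 in Y537S against 47.6 and 52.3 CPM in WT clones (0.38 ± 0.107, edgeR adjusted p = 0.0357). The groups did not overlap for any of the 3 genes. AGO3 was not called when any 1 of the 4 libraries was left out (-0.43 to -0.40), TNRC6B was not called without WT clone D4 (-0.26), and TNRC6C was not called without WT clone D1 (0.31) or D4 (0.44). DROSHA (chr5:31400601-31532303), DGCR8 (chr22:20067744-20099400), AGO1 and TNRC6A were not called in any genotype comparison, with differences from WT between -0.23 and 0.17.

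In all, 3 of the 10 genes were called in Y537S against WT cells, all higher, where 16.3% of all genes tested were higher and 29% were called. In D538G against WT cells 4 were called, 1 higher and 3 lower, against 38.9% of all genes called. In Y537S against D538G cells 1 was called, against 6.19% of all genes. The WT control libraries serve both mutant comparisons. The shares in Y537S and D538G cells were near those of all genes.

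**Figure D1:**
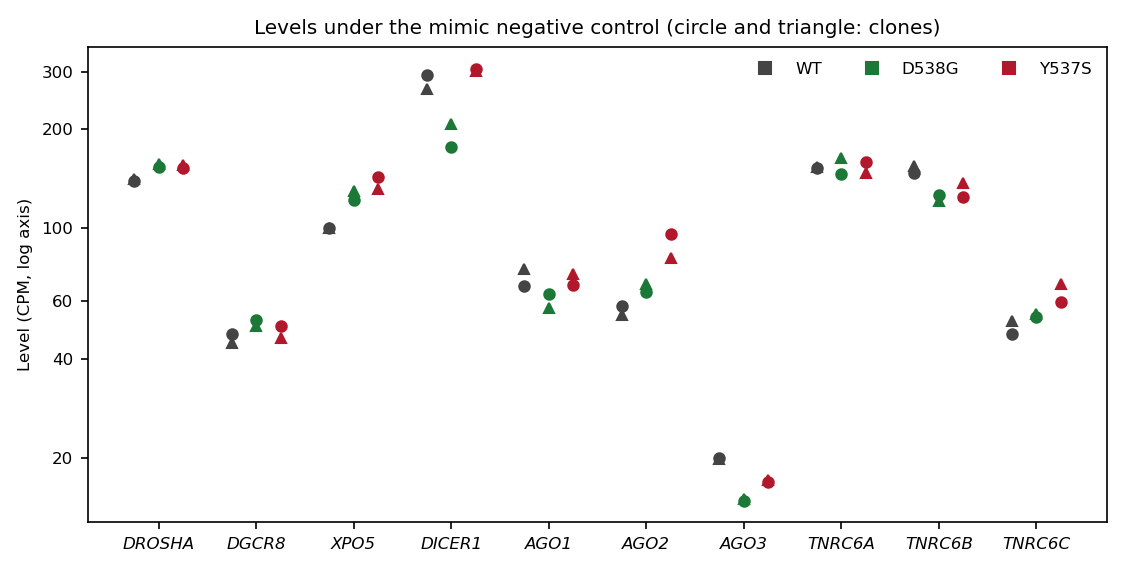
Transcript level (CPM, log axis) of the 10 genes under the mimic negative control in WT, D538G and Y537S cells; each point is 1 library, with circle and triangle for the clones of a genotype. XPO5 and AGO2 sit higher in both Y537S clones than in both WT clones, and DICER1 sits lowest in the D538G clones, at 176.8 and 207.9 CPM.

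The other genes of the pathway were described in the same way. Of 53 further genes tested, in 6 roles from nuclear processing to mRNA decay, 13 were higher and 6 lower in Y537S than in WT cells (median log2 difference 0.05), and 15 were higher and 12 lower in D538G than in WT cells (median 0.02). Of all genes tested, 29% and 38.9% were called in these comparisons. FKBP4, an HSP90 co-chaperone, was at 1008 and 962 CPM in Y537S and 883.1 and 913.9 in D538G against 474.2 and 526.0 in WT clones. It was higher by 1.01 ± 0.0848 and 0.85 ± 0.0699, respectively (edgeR adjusted p = 0.000313 and 3.63e-05). LIN28A, an RNA-binding protein that blocks let-7 maturation, was lower in D538G cells, at 21.5 and 20.9 against 45.7 and 41.8 CPM (-1.04 ± 0.0984, edgeR adjusted p = 6.73e-05). PAN2, a deadenylase, was lower in Y537S cells, at 52.5 and 63.4 against 91.5 and 88.6 CPM (-0.61 ± 0.112, edgeR adjusted p = 0.00722). RAN, the GTPase that powers nuclear export, was the only one of the 53 called between the mutants, 0.43 ± 0.0923 higher in Y537S cells (edgeR adjusted p = 0.0411).

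After the miR-301b mimic, DICER1 fell more than 2-fold in all 3 genotypes. In Y537S cells it was at 123.0 and 134.3 CPM with the mimic against 306.3 and 300.6 with the control, which is 2.4-fold lower (-1.26 ± 0.0899, edgeR adjusted p = 0.0193). In D538G cells it was at 96.0 and 81.7 against 176.8 and 207.9 CPM, which is 2.16-fold lower (-1.11 ± 0.110, edgeR adjusted p = 0.0022). In WT cells it was at 150.2 and 122.8 against 293.9 and 265.0 CPM, which is 2.06-fold lower (-1.04 ± 0.108, edgeR adjusted p = 0.00256). Treated and control libraries did not overlap in any genotype, each clone fell by 0.88 to 1.35 on the log2 scale, and DICER1 stayed called with any 1 library left out. The 3 miR-301b matches in its 3′UTR are those printed above.

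AGO1 also fell after the miR-301b mimic in the 3 genotypes. In WT cells it was at 40.5 and 48.6 CPM against 66.7 and 75.0, which is 1.6-fold lower (-0.68 ± 0.111, edgeR adjusted p = 0.0118), and it stayed called with any 1 library left out. In Y537S cells it was at 45.0 and 50.7 against 67.1 and 72.9 CPM (-0.57 ± 0.107, edgeR adjusted p = 0.0495), and in D538G cells at 49.1 and 41.5 against 63.2 and 57.1 CPM (-0.40 ± 0.108, edgeR adjusted p = 0.0396). The groups did not overlap, but these 2 calls lay close to the threshold. In Y537S cells the call was lost when any 1 library was left out (-0.66 to -0.48), and in D538G cells without the treated library of clone C2 (-0.29) or the control library of clone A5 (-0.33).

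TNRC6A and TNRC6B changed less. TNRC6A fell in D538G cells, from 145.9 and 164.2 to 121.8 and 112.1 CPM (-0.40 ± 0.0918, edgeR adjusted p = 0.0246), and in WT cells, from 152.2 and 153.8 to 123.8 and 122.5 CPM (-0.32 ± 0.0727, edgeR adjusted p = 0.0342). In Y537S cells it was at 116.7 and 108.1 against 159.7 and 147.5 CPM, which was just short of a call (-0.47 ± 0.0910, edgeR adjusted p = 0.0517; 9.95e-12 with the clone as a block). TNRC6B fell in WT cells, from 147.8 and 155.1 to 111.7 and 119.4 CPM (-0.40 ± 0.0778, edgeR adjusted p = 0.0215), while in Y537S and D538G cells its change was -0.29 and -0.19 and was called only where the clone was a block (edgeR adjusted p = 0.205 and 0.236 without it, 3.41e-05 and 0.0241 with it). The D538G call of TNRC6A was lost without the treated library of clone C2 (-0.34) or its control library (-0.31). The WT calls were lost without the control library of clone D1 (TNRC6A -0.33, TNRC6B -0.43) or D4 (TNRC6A -0.31, TNRC6B -0.36).

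TNRC6C, with 1 miR-301b match, was at 46.8 and 49.7 against 59.6 and 67.6 CPM in Y537S cells, 46.8 and 42.7 against 53.8 and 54.9 in D538G cells and 39.8 and 40.4 against 47.6 and 52.3 in WT cells. The groups did not overlap in any genotype, but the changes of -0.42, -0.28 and -0.33 missed the threshold (edgeR adjusted p = 0.0880, 0.0835 and 0.0649) unless the clone was a block (edgeR adjusted p = 1.69e-06, 0.00479 and 0.00682). DESeq2 called those in Y537S and WT cells.

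AGO2, with 6 miR-301b matches in its 3′UTR, changed by -0.37 in Y537S, -0.21 in D538G and -0.24 in WT cells, which passed with a clone block (edgeR adjusted p = 1.79e-06, 0.0288 and 0.0309) and not without one (0.12, 0.147 and 0.134). AGO3, with 5 matches, changed by -0.12, -0.08 and -0.11, called with neither. XPO5, with 1 match, changed by -0.25, -0.17 and -0.10, called with the block in Y537S and D538G cells (edgeR adjusted p = 0.000301 and 0.0396). In 3 of the 5 AGO3 matches the bases after the seed match are the same 10 letters, ccagcctggg. DROSHA and DGCR8, with no match, changed by -0.13 to -0.04. In the 3 genotypes the number of matches and the size of the change did not follow one order: the 3-match genes DICER1 and AGO1 had larger changes than the 5-match and 6-match genes.

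By count, 2 of 10 genes fell in Y537S cells (2.34% of all genes tested fell, 3.57% were called), 3 fell in D538G cells (6.49% fell, 11.8% were called) and 4 fell in WT cells (3.87% fell, 8.5% were called). No member rose. The median change of the 10 genes was -0.33, -0.20 and -0.28, beside 0.0073, 0.0055 and 0.0002 over all genes tested. With the clone as a block, which leaves 1 residual degree of freedom, 7 genes fell in Y537S, 7 in D538G and 6 in WT cells. Of all genes, 20%, 16.9% and 14.2% fell (38.4%, 33.3% and 28.2% were called). The difference in response between a mutant and WT cells was not called for any member (edgeR, 0 of 10 in Y537S and 0 of 10 in D538G cells, with 0 at an unadjusted p under 0.05 in each; DESeq2, 0 and 0), where edgeR called 0.00632% and 0.0064% of all genes and DESeq2 0.00475% and 0.00954%. For DICER1 it was -0.21 ± 0.150 in Y537S and -0.07 ± 0.167 in D538G cells. Genes of low GC content tended to fall and genes of high GC content to rise after the mimic: the median log2 fold change was between -0.28 and -0.19 in the 1928 genes with the lowest GC content (up to 40.4%), and 0.28 in the 1928 with the highest (58.1% and over). The DICER1 transcript has 40.2% GC, and with the GC trend removed DICER1 changed by -1.08, -0.91 and -0.90 in Y537S, D538G and WT cells and stayed called. AGO1 in Y537S (-0.52) and D538G cells (-0.37) and TNRC6A in D538G cells (-0.36) were no longer called after that correction. Calls fell over all genes too, from 186 higher and 355 lower to 6 and 19 in Y537S cells. In D538G cells they fell from 786 higher and 964 lower to 73 and 145. With the block and the correction, the 3 changes were called (edgeR adjusted p = 1.24e-12, 0.000997 and 0.000399).

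**Figure D2:**
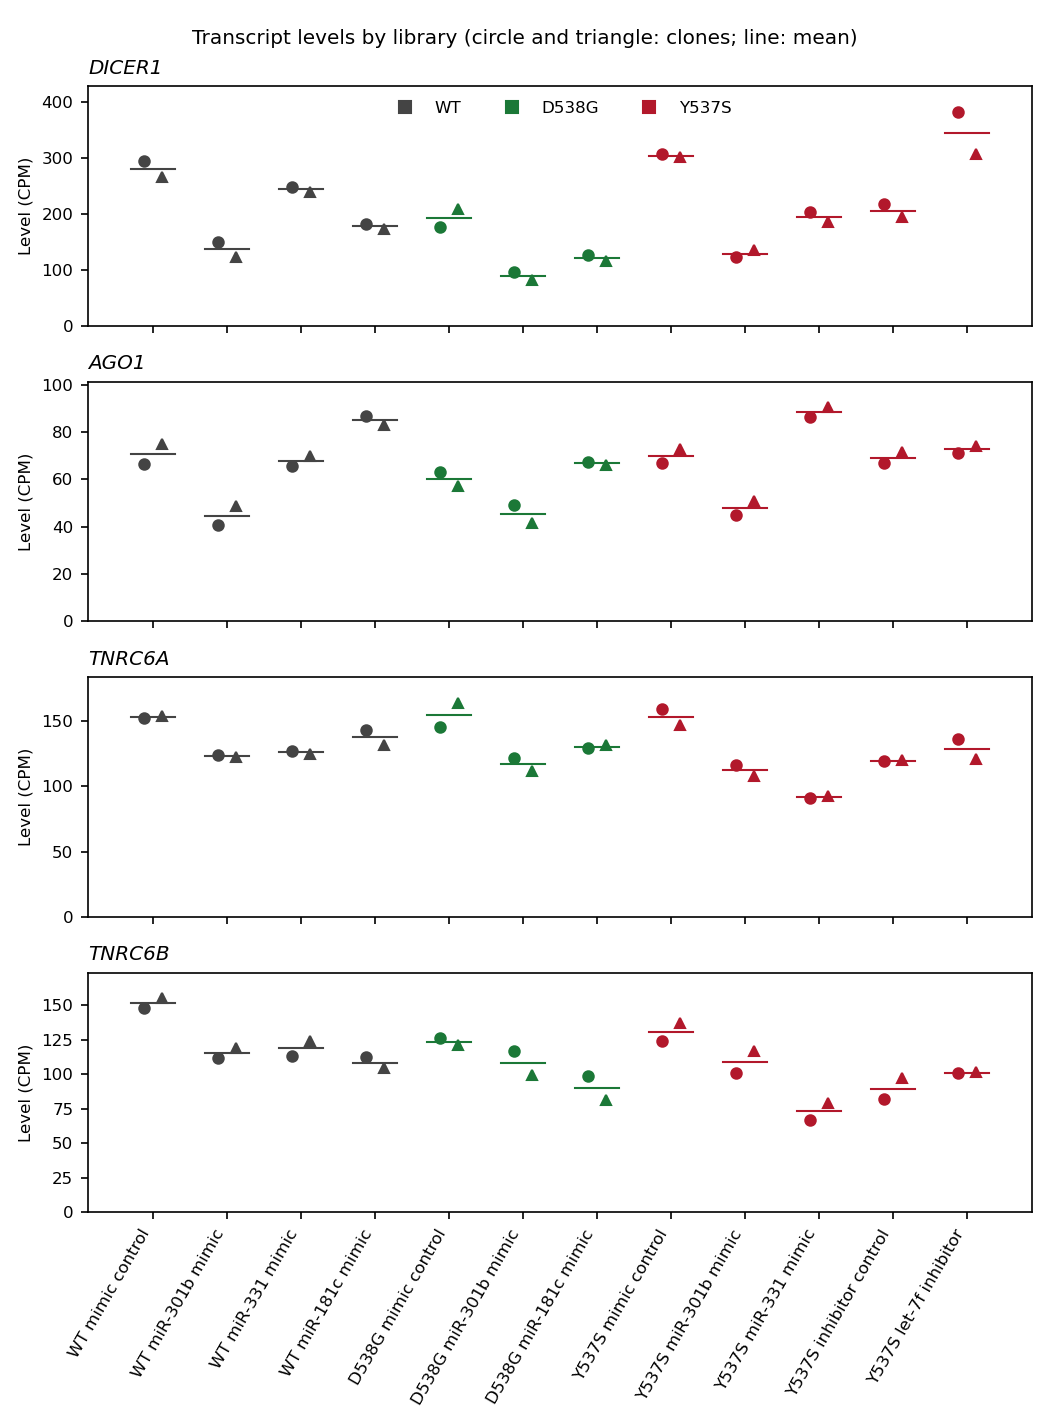
Level (CPM) of DICER1, AGO1, TNRC6A and TNRC6B in the 24 libraries, grouped by genotype (colour) and treatment; circle and triangle are the clones and the line is their mean. DICER1 is lowest in the miR-301b mimic libraries of each genotype, at 81.7 to 150.2 CPM, and TNRC6B is lowest in the Y537S miR-331 mimic libraries, at 67.3 and 79.4 CPM.

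Among the other pathway genes, CNOT6, a deadenylase of the CCR4-NOT complex, fell in each genotype after the miR-301b mimic. It was at 64.6 and 68.1 against 174.7 and 153.4 CPM in Y537S cells (-1.33 ± 0.101), 99.3 and 80.4 against 171.6 and 174.4 in D538G cells (-0.94 ± 0.105) and 62.3 and 71.0 against 142.7 and 151.9 in WT cells (-1.15 ± 0.0902). These passed at edgeR adjusted p of 0.0193, 0.00248 and 0.000974. PAN3, which partners PAN2, fell in Y537S cells, from 38.5 and 41.6 to 25.8 and 26.1 CPM (-0.65 ± 0.108, edgeR adjusted p = 0.0401), but was not called with the GC trend removed (-0.50, adjusted p = 0.119 in edgeR). LIN28A rose in D538G cells, from 21.5 and 20.9 to 39.3 and 42.7 CPM (0.96 ± 0.105, edgeR adjusted p = 0.00243), and in WT cells, from 45.7 and 41.8 to 78.2 and 80.2 CPM (0.85 ± 0.0867, edgeR adjusted p = 0.00254). Of the 53 genes, 0 rose and 5 fell in Y537S, 2 rose and 6 fell in D538G, and 2 rose and 7 fell in WT cells, with medians of -0.09, -0.08 and -0.10, where 3.57%, 11.8% and 8.5% of all genes were called. In the blocked fit, 9 rose and 23 fell in Y537S, 5 rose and 18 fell in D538G and 7 rose and 20 fell in WT cells, where 38.4%, 33.3% and 28.2% of all genes were called.

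After the miR-331 mimic, the scaffolds TNRC6A and TNRC6B fell in both genotypes tested. TNRC6B was at 67.3 and 79.4 CPM in Y537S cells against 124.5 and 137.2 with the control, which is 1.75-fold lower (-0.81 ± 0.127, edgeR adjusted p = 0.00964). In WT cells it was at 113.3 and 124.5 against 147.8 and 155.1 CPM (-0.32 ± 0.0675, edgeR adjusted p = 0.00592). TNRC6A was at 91.0 and 93.0 in Y537S cells against 159.7 and 147.5 CPM, which is 1.64-fold lower (-0.71 ± 0.0949, edgeR adjusted p = 0.00749), and at 127.5 and 124.9 in WT cells against 152.2 and 153.8 CPM (-0.25 ± 0.0594, edgeR adjusted p = 0.0108). No treated library reached a control library. TNRC6B with 2 and TNRC6A with 1 are, besides AGO2 with 1, the members with a miR-331 match in the 3′UTR, and AGO2 was not called (0.16 in Y537S and 0.13 in WT cells). AGO2 was called as higher in Y537S cells with the clone as a block (edgeR adjusted p = 0.0411), although treated and control libraries overlapped there. With the GC trend removed the TNRC6A change in WT cells was -0.20 and just missed the threshold (edgeR adjusted p = 0.0519). In WT cells the TNRC6A call was lost without the treated library of clone D1 (-0.27) or D4 (-0.23), and the TNRC6B call without that of clone D1 (-0.26).

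In Y537S cells, DICER1 and AGO1 moved in opposite directions after the miR-331 mimic. DICER1 fell from 306.3 and 300.6 to 203.7 and 185.3 CPM (-0.61 ± 0.0896, edgeR adjusted p = 0.00849), with no miR-331 match in its 3′UTR or coding sequence. In this comparison the same 1928 genes of lowest GC content had a median change of -0.42 and the 1928 of highest 0.53, and with the GC trend removed DICER1 changed by -0.25 and was not called. AGO1 rose from 67.1 and 72.9 to 86.3 and 90.6 CPM (0.37 ± 0.0990, edgeR adjusted p = 0.0398), without overlap, but the call was lost when any 1 library was left out (0.31 to 0.43). In WT cells DICER1 was at 248.0 and 238.8 against 293.9 and 265.0 CPM (-0.17 ± 0.0638, edgeR adjusted p = 0.0700; 0.00355 with the clone as a block, and called without the control library of clone D4 at -0.24), and AGO1 changed by -0.04.

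In Y537S cells 4 of 10 genes were called, 1 up and 3 down, where 33% of all genes tested were called. In WT cells 2 were called, both down, where 10.6% of all genes fell and 24.8% were called. With the clone as a block, 9 were called in Y537S cells (3 up, 6 down), where 60.7% of all genes were. Besides AGO2, the block added XPO5 (0.20), DROSHA (-0.15), DGCR8 (-0.30) and TNRC6C (-0.26), with edgeR adjusted p of 0.00513, 0.0363, 0.00161 and 0.00248, against 0.188, 0.256, 0.146 and 0.262 without it. Both shares without the block were close to those of all genes, and the median change of the 10 genes was -0.20 in Y537S and -0.09 in WT cells, beside -0.01 and -0.0022 over all genes. The response differed between Y537S and WT cells for 2 of 10 genes, where 9.94% of all genes tested did: the TNRC6A change was lower in Y537S cells by 0.47 ± 0.0986 on the log2 scale (-0.47; edgeR adjusted p = 0.0241) and the DICER1 change was lower by 0.46 ± 0.112 (-0.46; edgeR adjusted p = 0.0392). For DICER1 that call was lost with the GC trend removed (-0.24, where the correction moved the median of all genes by 0.12) and with DESeq2-type size factors in edgeR (-0.41). TNRC6B differed by -0.50 ± 0.141 and missed the threshold (edgeR adjusted p = 0.0597; 4.44e-05 with the clone as a block, which called 5 of the 10 genes against 34.1% of all, adding XPO5 at 0.32 and AGO1 at 0.39). The Y537S miR-331 libraries had TMM scaling factors of 0.9001 and 0.9385, and their part in the differences was not tested.

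**Figure D3:**
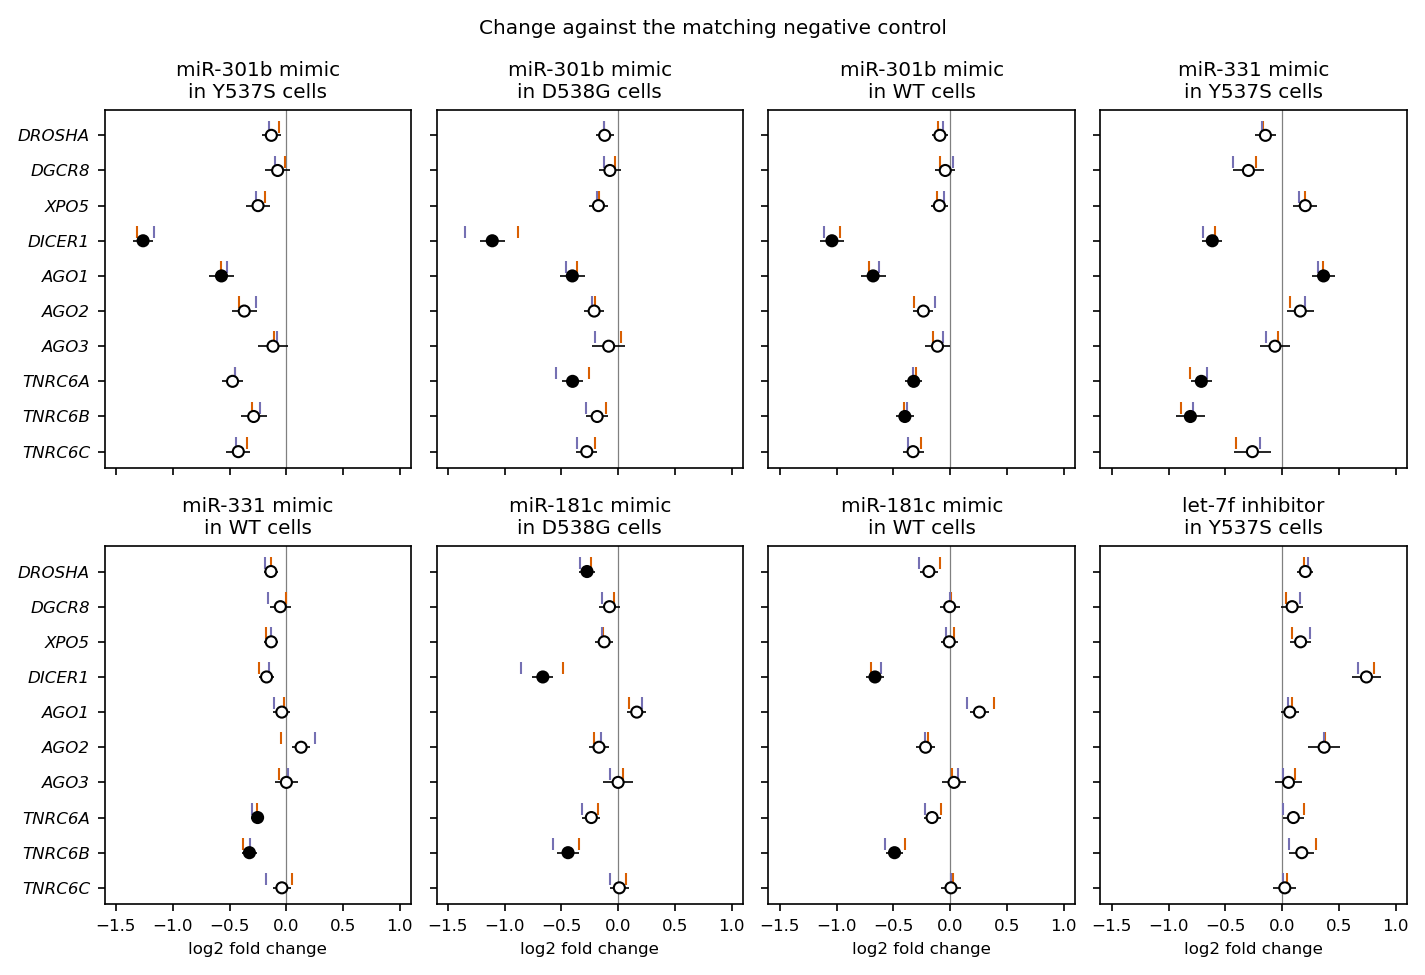
Log2 fold change against the matching negative control for the 10 genes in the 8 treatment comparisons. Circles are the fit with bars of 1 SE, filled where the adjusted p was under 0.05, and the ticks above them are the differences within each clone; DICER1 is the leftmost circle in the miR-301b panels, at -1.26 to -1.04.

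Of the further pathway genes, 8 rose and 11 fell in Y537S cells after the miR-331 mimic (median -0.07), and 4 rose and 10 fell in WT cells (median -0.08), where 33% and 24.8% of all genes were called. The blocked fit gave 17 that rose and 21 that fell in Y537S cells and 8 that rose and 17 that fell in WT cells, where 60.7% and 37% of all genes were called. DCP2, the decapping enzyme, fell in Y537S cells from 449.7 and 439.3 to 200.9 and 221.1 CPM (-1.05 ± 0.0931, edgeR adjusted p = 0.00618). With the GC trend removed its change was -0.50, still called. ZCCHC11, a terminal uridylyltransferase that tails let-7 precursors together with LIN28 proteins, fell in Y537S cells from 57.4 and 52.6 to 27.1 and 30.6 CPM (-0.90 ± 0.117, edgeR adjusted p = 0.00709; -0.55 with the GC trend removed). In WT cells LIN28A rose from 45.7 and 41.8 to 73.5 and 78.0 CPM (0.82 ± 0.0733, edgeR adjusted p = 0.000106). TARBP2, an RNA-binding partner of DICER1, rose there from 33.7 and 34.9 to 49.2 and 49.0 CPM (0.54 ± 0.0758, edgeR adjusted p = 0.00078), but was not called with the GC trend removed (0.21).

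After the miR-181c mimic, DICER1 and TNRC6B fell in both D538G and WT cells. DICER1 was at 125.9 and 114.9 in D538G cells against 176.8 and 207.9 CPM (-0.66 ± 0.0925, edgeR adjusted p = 0.00431) and at 181.5 and 173.4 in WT cells against 293.9 and 265.0 CPM (-0.66 ± 0.0752, edgeR adjusted p = 0.000488), both 1.58-fold lower. Neither pair of groups overlapped, and both calls held with any 1 library left out and with the GC trend removed (-0.54 and -0.49). Its only miR-181c matches were the 2 in the coding sequence, of which the 8-base one is printed above.

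TNRC6B, with 4 miR-181c matches in its 3′UTR, fell in WT cells from 147.8 and 155.1 to 112.3 and 104.4 CPM (-0.49 ± 0.0759, edgeR adjusted p = 0.00254). In D538G cells it fell from 126.1 and 121.5 to 99.1 and 81.7 CPM (-0.44 ± 0.0983, edgeR adjusted p = 0.0237), but was not called without the treated library of clone C2 (-0.31) or with the GC trend removed (-0.37). DROSHA, with 1 match, fell in D538G cells from 154.1 and 157.0 to 130.8 and 124.3 CPM (-0.27 ± 0.0736, edgeR adjusted p = 0.0453). This call was lost when any 1 library was left out (-0.31 to -0.24) and with the GC trend removed (-0.22). In D538G cells that correction left 81 of all genes higher and 197 lower, against 827 and 585 without it. With the block and the correction, TNRC6B and DROSHA were called there (edgeR adjusted p = 2.89e-06 and 0.000597). In WT cells DROSHA was at 130.7 and 116.6 against 139.3 and 140.9 CPM (-0.19, not called; edgeR adjusted p = 0.0419 with the clone as a block).

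AGO2, with 3 miR-181c matches, changed by -0.17 in D538G and -0.22 in WT cells, and AGO1, with none, by 0.16 and 0.26, none of them called. The AGO2 change in WT cells was called with the clone as a block (edgeR adjusted p = 0.0397), and both clones were lower. In WT cells AGO1 was at 87.0 and 83.2 against 66.7 and 75.0 CPM, without overlap, and was called with the clone as a block (edgeR adjusted p = 0.0121) or with the GC trend removed (0.31). TNRC6A was at 129.3 and 131.8 in D538G cells against 145.9 and 164.2 CPM (-0.24), and was called with the clone as a block (edgeR adjusted p = 0.000959) or without the control library of clone A5 (-0.31). In D538G cells 3 of 10 genes were called, all down, where 3.95% of all genes tested fell and 9.52% were called. In WT cells 2 were called, both down, where 8.28% fell and 16.4% were called. The median change of the 10 genes was -0.15 and -0.08, beside -0.0029 and 0.0104 over all genes. With the clone as a block 5 were called in WT cells, 1 up and 4 down, where 27.9% of all genes were. A difference in response between D538G and WT cells was not called for any member (edgeR, 0 of 10, with 0 at an unadjusted p under 0.05, and DESeq2, 0). Of all genes, edgeR called 0.00646% and DESeq2 0.00959%. For DICER1 the difference was 0.0022 ± 0.127 on the log2 scale.

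**Figure D4:**
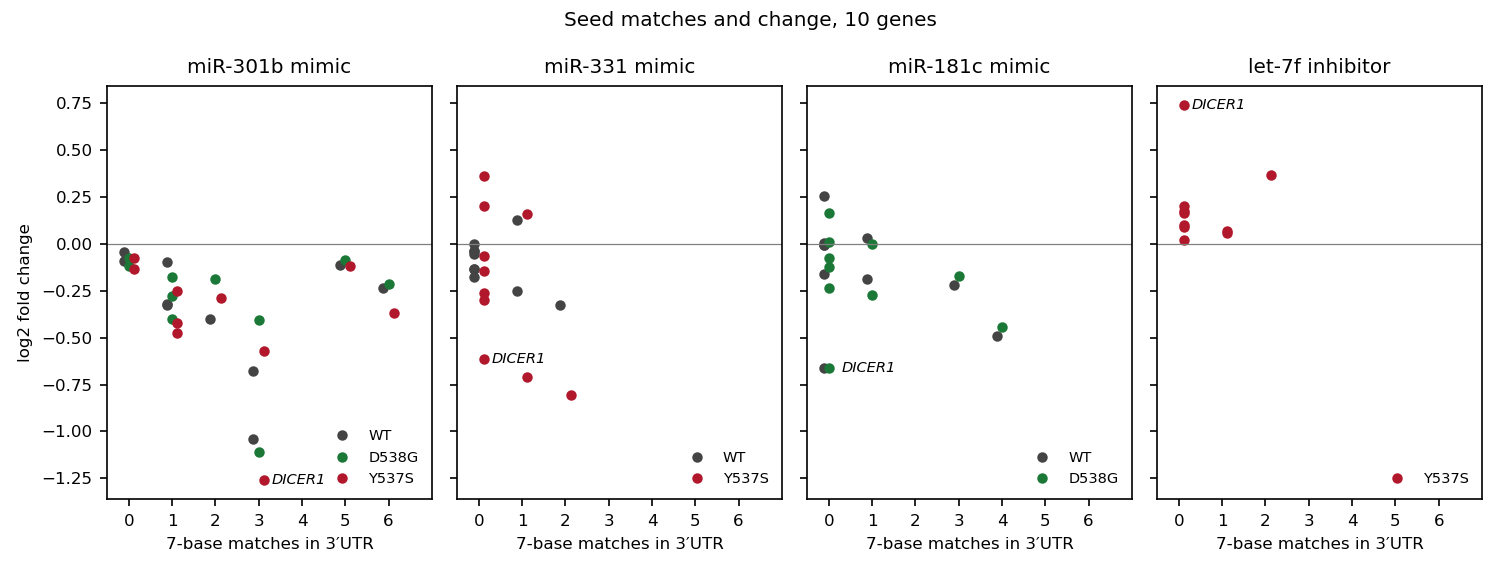
Log2 fold change of the 10 genes (vertical axis) against the number of 7-base seed matches in the 3′UTR (horizontal axis) for each miRNA, coloured by genotype and set slightly apart for legibility. DICER1 lies lowest at 3 matches after the miR-301b mimic, and lies away from the other genes at 0 matches after the miR-181c mimic and the let-7f inhibitor.

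CNOT6 fell after the miR-181c mimic as well, from 171.6 and 174.4 to 115.6 and 102.3 CPM in D538G cells (-0.66 ± 0.0823, edgeR adjusted p = 0.00334) and from 142.7 and 151.9 to 72.3 and 82.9 CPM in WT cells (-0.93 ± 0.0874, edgeR adjusted p = 0.000182). XRN1, the exonuclease that degrades decapped mRNA, fell in D538G cells from 105.2 and 103.0 to 87.1 and 72.9 CPM (-0.37 ± 0.0953, edgeR adjusted p = 0.0403), but was not called with the GC trend removed (-0.23, adjusted p = 0.282 in edgeR). AGO4, the remaining Argonaute, fell in WT cells from 25.6 and 25.7 to 14.7 and 16.1 CPM (-0.74 ± 0.111, edgeR adjusted p = 0.00208). Of the 53 genes, 0 rose and 5 fell in D538G and 5 rose and 10 fell in WT cells, where 9.52% and 16.4% of all genes were called. In the blocked fit, 7 rose and 16 fell in D538G cells, where 29.3% of all genes were called. The WT comparisons with the 3 mimics share their control libraries, as do those of Y537S cells with miR-301b and miR-331 and those of D538G cells with miR-301b and miR-181c.

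With the let-7f inhibitor, DICER1 was higher than with the inhibitor control in both Y537S clones. It was at 382.4 and 307.0 CPM against 218.0 and 193.4, without overlap, a difference of 0.74 ± 0.129 that was not called (edgeR adjusted p = 0.751). AGO2 was at 109.6 and 90.3 against 84.3 and 70.1 CPM (0.37 ± 0.138, edgeR adjusted p = 0.923). Its 3′UTR held 2 let-7f matches, where 48.7% of 232 genes of like length held any. AGO1, with 1 match, was at 71.2 and 74.3 against 66.83 and 71.72 CPM. AGO3, with 1, was at 17.31 and 16.15 against 16.04 and 16.07 CPM. The median change of the 10 genes was 0.13, beside 0.0048 over all genes. No gene of the whole table was called in this comparison (edgeR, 0% of 15140 genes), 3 of the 10 members had an unadjusted p under 0.05, and DESeq2 called 1 member, DICER1, where it called 0.113% of all genes as higher.

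With the clone as a block, 5 members were higher with the inhibitor, where 4.31% of all genes were higher and 11.2% were called. DICER1 was higher by 0.74 (edgeR adjusted p = 6.77e-10), and AGO2 by 0.37 (3.02e-05). DROSHA was at 149.6 and 154.2 against 131.2 and 132.0 CPM (0.20; block adjusted p in edgeR 0.00201). XPO5 was at 150.7 and 145.2 against 141.6 and 122.3 CPM (0.17; 0.0166 in the same test), and TNRC6B at 100.8 and 101.7 against 81.8 and 97.4 CPM (0.18; 0.041). Within each clone all 5 were higher, by 0.06 to 0.81 on the log2 scale. Here and in the other treatment comparisons the blocked fit leaves 1 residual degree of freedom, so its p-values draw on variation pooled over genes. With the clone as a block, 4 of the 53 other pathway genes were higher and 6 lower, beside the 11.2% of all genes called.

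When the clone was a block, 6 members were lower with the inhibitor control than with the mimic control in Y537S cells. They included DICER1, AGO2, DROSHA and TNRC6B of the 5 genes above and not XPO5, which changed by -0.07 with overlapping groups (edgeR adjusted p = 0.357 with the block). DICER1 was at 218.0 and 193.4 with the inhibitor control against 306.3 and 300.6 CPM with the mimic control (-0.56 ± 0.0831, edgeR adjusted p = 0.41; 1.02e-11 with the clone as a block). TNRC6B was at 81.8 and 97.4 against 124.5 and 137.2 CPM (-0.55 ± 0.120, edgeR adjusted p = 0.575; 1.87e-09 with the block), and TNRC6A at 119.3 and 120.4 against 159.7 and 147.5 CPM (-0.36 ± 0.0797, edgeR adjusted p = 0.575; 1.44e-06 with the block). No member was called without the block (edgeR, 0 of 10 and 0% of all genes), 4 had an unadjusted p under 0.05, and DESeq2 called 2, DICER1 and TNRC6B, both lower, where it called 0.106% of all genes as lower. The others of the 6 lower with the block were DROSHA (-0.23), AGO2 (-0.20) and TNRC6C (-0.27), where 7.84% of all genes were lower and 16.7% were called. The DICER1 level with the let-7f inhibitor, 382.4 and 307.0 CPM, thus lay above the inhibitor control and next to the mimic control, whose 2 libraries it exceeded in each clone. No untransfected cells were analysed here.

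**Figure D5:**
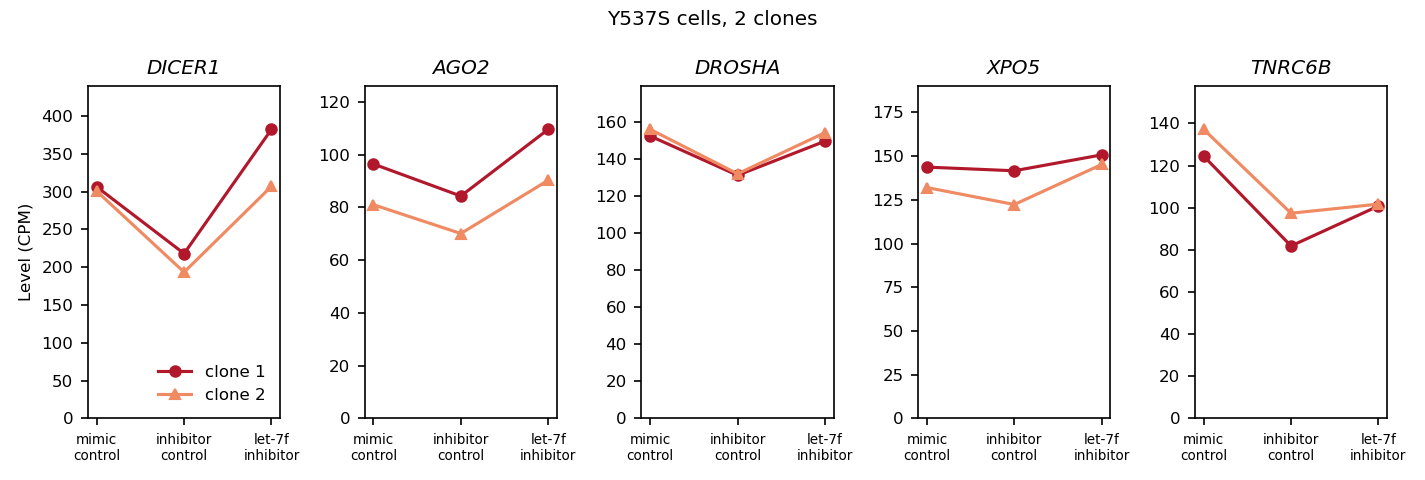
Level (CPM) of DICER1, AGO2, DROSHA, XPO5 and TNRC6B in Y537S cells with the mimic control, the inhibitor control and the let-7f inhibitor; each line joins the libraries of 1 clone. For DICER1 the inhibitor control lies below both other conditions, at 218.0 and 193.4 CPM.

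Over the 24 libraries, which differ in genotype as well as treatment, the members differed in how far they ranged. DICER1 spanned 81.7 to 382.4 CPM over the 24 libraries (4.68-fold), followed by AGO2 (46.6 to 109.6 CPM, 2.35-fold), TNRC6B (67.3 to 155.1, 2.3-fold) and AGO1 (40.5 to 90.6, 2.24-fold). The nuclear processing genes had the narrowest ranges, with DROSHA at 116.6 to 157.0 CPM (1.35-fold) and DGCR8 at 34.5 to 52.7 CPM (1.53-fold). Within the 8 treatment comparisons, log2 fold changes spanned least for AGO3, at -0.12 to 0.06. They spanned -0.27 to 0.20 for DROSHA, -0.30 to 0.09 for DGCR8 and -0.37 to 0.37 for AGO2. In the edgeR test with all 4 libraries of a comparison and neither block nor correction, DGCR8, XPO5, AGO2, AGO3 and TNRC6C were called in none of the 8 comparisons. Other settings called some of them, among them TNRC6C after the miR-301b mimic, which DESeq2 called in Y537S and WT cells (adjusted p = 0.025 and 0.0454) and the GC-corrected edgeR test in WT cells (adjusted p = 0.0204). The genes outside the pathway most like DICER1 over the 24 libraries were PHLPP2 (r = 0.916), DAAM1 (0.894) and FNDC3A (0.867).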

How the data were processed

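RNA was sequenced from 24 libraries of T-47D clones. Per the labels and the study's methods, the authors made poly-A libraries with a stranded kit, aligned them with HISAT2 to the hg19 build, and used featureCounts of Subread to count reads per gene of the UCSC Known Genes table; versions, the strand setting and the handling of multiply mapping reads are not given in the sources used here. The authors deposited whole-number counts without normalization. Depth was 31379962 to 50526442 counts per library. Columns of the WT and D538G tables name clones and not samples, so they were assigned to conditions.

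Members and lists were chosen with earlier results of these data known. A treatment and its negative control in 1 genotype were compared with edgeR 4.0.16 in R 4.3.3 (TMM, filterByExpr, quasi-likelihood F test, Benjamini-Hochberg over all genes, threshold 0.05), after tests on simulated data. P-values are two-sided, the SE is the log2 fold change divided by the square root of F, and CPM are TMM-normalized. Clones of a genotype are the replicates, as in the study's methods. Libraries of 1 clone come from the same line, and the clone differences of treated and control libraries correlated at 0.434 to 0.850 over 9723 genes, so the clone was taken as a pairing and a fit with it as a block is given where it changes a call. DESeq2 1.42.0, DESeq2-type size factors, no filter on low counts, a GC correction (lowess of log2 CPM on GC content, span 0.3), all libraries in 1 fit and each library left out were alternatives. Of 26364 genes, 23852 (90.5%) were matched to GENCODE v44 lifted to GRCh37, 1358 of them by an older symbol, for GC content, lengths, positions and 3′UTRs; miRNA sequences are from RefSeq (GRCh38.p14). All members were named; of the 54 other pathway genes, those named are at most the 2 largest changes per comparison among those called at a mean of 10 CPM or more, and of genes like AGO2 and DICER1 the 3 with the highest r.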

Additional observations from a re-analysis of the deposited data

Results flagged for a closer look

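In 2 of the 10 genes the response to the miR-331 mimic differed between Y537S and WT cells in a test of the difference itself, fitted with edgeR's quasi-likelihood test on the 8 libraries. That test called 9.94% of all genes. The TNRC6A response differed by -0.47 on the log2 scale (-0.71 in Y537S and -0.25 in WT cells, lower in both clones of each). The DICER1 response differed by -0.46 (-0.61 and -0.17, lower in both clones of each). With the GC trend removed the differences were -0.44 for TNRC6A, still called, and -0.24 for DICER1, no longer called. The DICER1 call was also lost with DESeq2-type size factors in edgeR. Groups of 2 libraries were too small to look for single outlying libraries.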

How the results depend on the processing

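Some calls of DICER1 depended on the setting, as given above. So did the number of members called. With DESeq2 it was 4 in Y537S cells given the miR-301b mimic, 1 for the let-7f inhibitor, 2 for Y537S against D538G cells, 2 for the control oligos and 4 for the difference in miR-331 response. DESeq2 called 15.2%, 0.56%, 11.3%, 0.779% and 15.6% of all genes in these comparisons, in that order. With DESeq2-type size factors 1 member was called for the miR-331 response, beside 761 of all genes higher and 944 lower. Without a filter on low counts 2 members were called for Y537S against D538G cells, beside 1213 of all genes higher and 778 lower. With the GC correction the member count was 1 each for the miR-301b mimic in Y537S and D538G cells, the miR-331 mimic in WT cells, D538G cells given miR-181c and the difference in miR-331 response. Of all genes, 6, 73, 372, 81 and 1074 were higher and 19, 145, 765, 197 and 805 lower, in that order. Blocking on the clone gave 7 members in Y537S and 7 in D538G cells given miR-301b, 9 in Y537S cells given miR-331, 5 for the miR-181c mimic in WT cells, 5 for the let-7f inhibitor, 6 for the control oligos and 5 for the difference in miR-331 response. That fit called 38.4%, 33.3%, 60.7%, 27.9%, 11.2%, 16.7% and 34.1% of all genes, in that order. Block plus GC correction gave 8 and 5 members in Y537S and D538G cells given miR-301b, 9 in Y537S cells given miR-331 and 5 for the miR-331 mimic in WT cells. It gave 6 in D538G cells given miR-181c, 5 for the inhibitor, 6 for the control oligos and 7 for the response. Of all genes, it called 1921, 945, 5093, 1187, 845, 1263, 1011 and 3717 as higher, in that order. As lower it called 2418, 1316, 3222, 2302, 1638, 592, 1397 and 1817. With all libraries in 1 fit, 1258, 3431, 1243, 11, 1080 and 105 of all genes were higher in the comparisons that follow, in that order. Lower were 1225, 4042, 994, 10, 953 and 18. The number of members called was 5 and 7 for the miR-301b and miR-331 mimics in Y537S cells, 1 for the miR-331 mimic in WT cells, 1 for the inhibitor, 2 for Y537S against D538G cells and 3 for the control oligos. With 1 library left out, where the lone library is assumed to vary like the other group, it was 1 and 1 to 3 and 2 to 4 for the miR-301b mimic in Y537S, D538G and WT cells, 0 to 3 for the miR-331 mimic in WT cells and 1 to 3 in D538G cells given miR-181c. It was 1 to 4 for Y537S and 2 to 5 for D538G against WT cells, and 0 to 2 for Y537S against D538G cells. The cause of these shifts was not tested. Fits with 1 library left out also rest on fewer libraries.

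No called log2 fold change changed sign under any of these settings. Of 30 calls, the GC correction ended 8, DESeq2-type size factors 1 and all libraries in 1 fit 2 of the 28 calls it covers (TNRC6B, after the miR-331 mimic in WT cells and in D538G against WT cells). DESeq2, the block and the omission of the filter ended none. The block with GC correction ended none of the 22 calls it covers. Values that were called with neither the main test nor the block changed sign in up to 15 of 160 cases per setting. The block added 35 calls to the 22 it covers. With 8-base in place of 7-base matches in the 3′UTR, 1 member had a miR-301b match and 1 a miR-331 match, in both cases AGO2. The miR-181c match was held by 2, AGO2 and TNRC6B. AGO2 was not called after the miR-301b or miR-331 mimic without the block. The miR-301b and miR-331 sites printed for other members do not extend to 8 bases. With 2 libraries a group, the smallest log2 change called without the block was -0.25.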
